A study of Macaca mulatta with 6 samples.

Results

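The genes described here encode the constitutive proteasome, the protease complex that degrades ubiquitin-tagged proteins in every cell. They were taken by platform gene symbol, namely the PSMA, PSMB, PSMC, PSMD, PSMF and PSMG genes with PSME3 and PSME4, without the interferon-induced PSMB8, PSMB9 and PSMB10. A total of 68 of 52024 probe sets qualified, for 30 of the 14132 genes that had a probe set with a single symbol, and each gene is represented by its brightest probe set, the one with the highest mean signal. By role the 30 genes are 4 of the alpha ring and 6 of the beta ring of the core particle, 12 of the regulatory particle, 5 assembly chaperones, the inhibitor PSMF1, the activator PSME3, and PSMC3IP, which shares the prefix only. A further 6 probe sets carried several symbols, a proteasome gene among them, and were not used, so that PSMA6 and PSMD4 have no value, and the remaining 12 genes of the list by role were not analysed here.

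The core particle is a barrel of stacked rings, in which the outer alpha rings control entry and the inner beta rings carry the proteolytic sites. The regulatory particle caps the barrel: its base holds a ring of ATPases that unfold substrates, and its lid removes ubiquitin. Photoreceptors shed and renew part of their outer segments daily, so that protein turnover is high in the retina. Chaperones assemble the particles, and the transcription factor NFE2L1 raises the subunit genes together when proteasome activity is short.

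The treated retinas came from the side on which the optic nerve within the orbit had been irradiated by gamma knife surgery with 15 Gy in 3 male rhesus macaques aged 8 to 10 years, and the control retinas from the other eye of the same animals. All 6 were collected at 24 h, and RNA of the temporal part was hybridized to 1 array per retina. The contralateral retina is not an unexposed control, since the dose that reached the eyeball was 3 Gy for treated and 1 Gy for control retinas. Signals are log2 values of the MAS 5.0 algorithm, which summarises the probes of a set within an array, and differences are treated minus control, so that a log2 difference of 1 would be a doubling.

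Values that concern the arrays as a whole are given first. The median log2 signal was 6.44 to 6.98 on the treated arrays and 6.69 to 7.03 on the control arrays, and the lowest was that of the treated array of replicate 2, on which 29.7% of probe sets lay under a log2 signal of 5, against 22.6% to 25.9% on the other arrays. Over the brightest probe sets of all genes, the median treated minus control difference was 0.03, and it was 0.13 once the median of every array had been subtracted (median centring). Higher signals in treated retinas made up 44.0% of the probe sets with an unadjusted limma p under 0.05 at the deposited scaling and 61.7% after median centring. Rod markers, which define the tissue, had a summed linear signal of 130531 to 166536 in treated and 152378 to 178887 in control retinas, with 0 of 5 above 0 in the log2 difference. Of the markers of microglia and leukocytes 5 of 7 were above 0, with a summed signal of 1950 to 2390 in treated and 1770 to 2122 in control retinas, and of those of retinal ganglion cells 3 of 3, with 5436 to 6940 in treated and 4601 to 6267 in control retinas. Of the Müller glia markers 2 of 5 were above 0, with 55650 to 74268 in treated and 60055 to 76721 in control retinas, and of the retinal pigment epithelium markers 0 of 3, with 1173 to 2412 in treated and 1939 to 2308 in control retinas. Above 0 were also 1 of 3 cone markers, 3 of 4 of endothelium and 1 of 2 of erythrocytes. In none of these lists did a marker have a mean log2 signal under 5, and the part of these shifts in the values below was not tested. In whole tissue, fewer cells of a type and less RNA per cell cannot be told apart.

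By their brightest probe sets, the constitutive proteasome genes were measured at slightly higher signals in treated than in control retinas, and none passed the test. Of the 30 genes, 26 had a log2 difference above 0, where 55.5% of all genes did. Their median was 0.12, beside 0.03 over all genes. Within the pairs the median of the 30 genes was 0.12, 0.24 and 0.07 for replicates 1 to 3, beside 0.04, 0.07 and −0.004 for all genes. After adjustment over all probe sets, limma with the retinas paired by replicate called 0 of the 30, and the lowest adjusted p was 0.669. At that threshold 0.205% of all genes were called higher and 0.00708% lower. With an unadjusted p under 0.05 there were 3 higher genes (PSMA1, PSMA3 and PSMG3) and 1 lower gene (PSMC3IP), beside 5.02% and 3.01% of all genes. Of the 2337 genes with a mean log2 signal of at least 11, 166 were higher and 134 lower at that p. Of the 21 proteasome genes among them, 2 were higher and 1 lower. The count of 4 over the 30 genes, beside 6.74% of all probe sets, became 0 without the pairing (2.45%) and 0 when the variance prior was fitted without a trend (5.55%). Without replicate 1 it was 1 (4.25%).

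The 30 genes are brighter than most, and their intervals were about as narrow as those of other bright genes. The 95% interval of the difference lay within 0.5 of 0, a fold of at most 1.41, for 26 of the 30 genes, beside 38.8% of all genes and 85.2% of those with a mean log2 signal of at least 11. The exceptions were PSMG3, PSMB11, PSMC6 and PSMC3IP. The median log2 signal of the 30 genes was 11.70, against 8.46 for all genes. Among all genes in that bright range, 60.5% lay above 0 and the median difference was 0.04. Of the 21 proteasome genes in it, 20 lay above 0, with a median of 0.14. Within the pairs of replicates 1 to 3 their median was 0.12, 0.27 and 0.05, beside 0.04, 0.13 and −0.03 for all genes in that range.

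**Figure D1:**
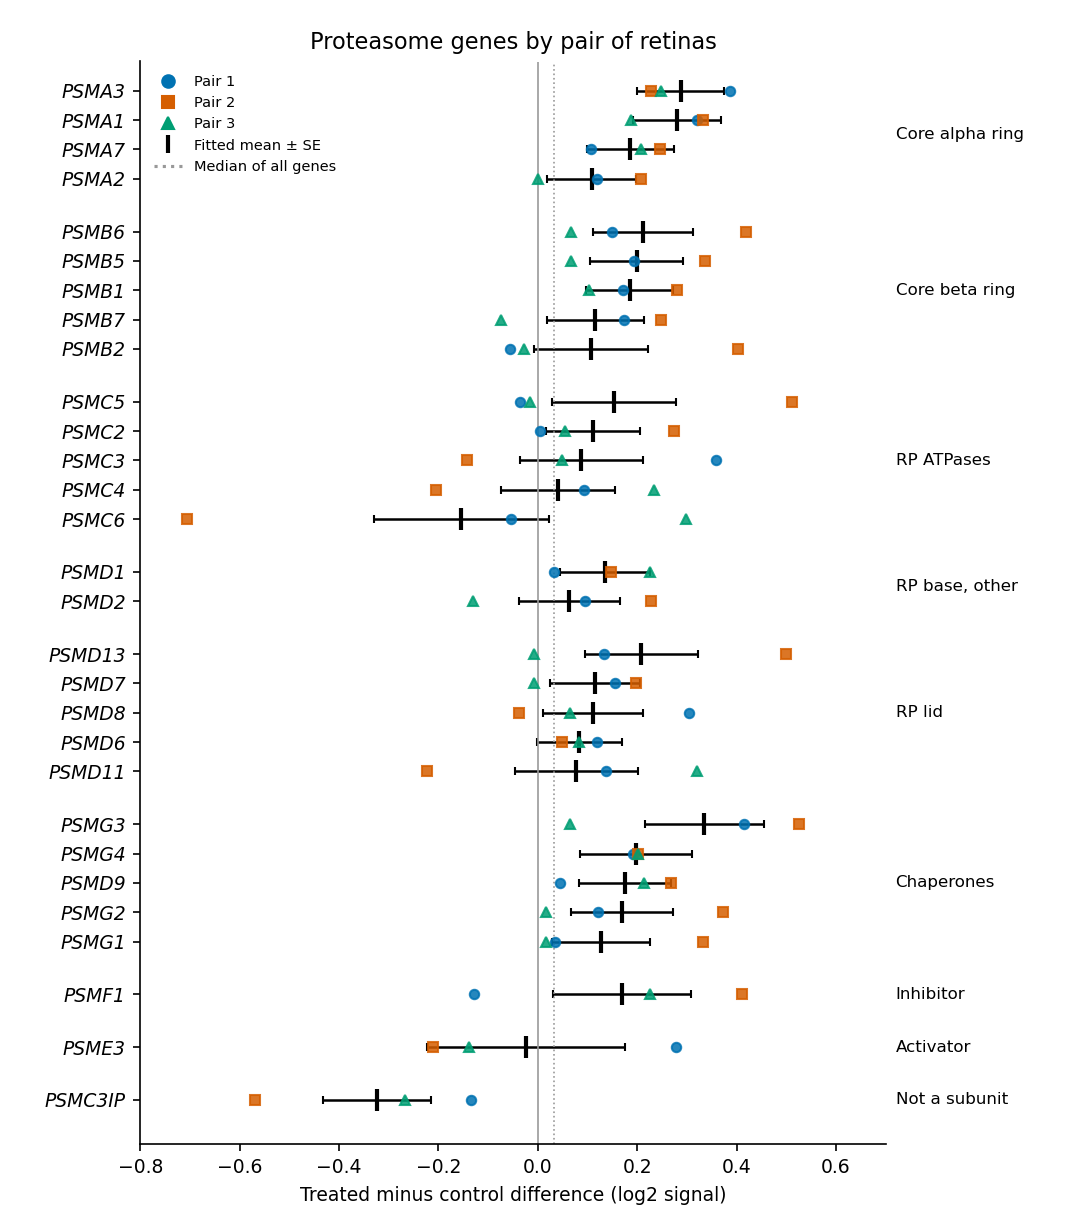
Treated minus control difference in log2 signal (horizontal axis) for 29 proteasome genes, grouped by role, with RP for the regulatory particle. Coloured symbols are the 3 pairs of retinas, black ticks with bars are the fitted mean ± SE, and the dotted line is the median of all genes at 0.03. PSMB11, with a pair at −3.13, lies beyond the axis and is not drawn. All 4 alpha ring genes and all 5 chaperones have a fitted mean above 0.

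In the alpha ring, all 4 genes measured had a difference above 0, from 0.11 to 0.29. PSMA3 had log2 signals of 12.66, 12.73 and 12.54 in the treated retinas of replicates 1 to 3, against 12.28, 12.50 and 12.29 in the control retinas. It was the only proteasome gene whose groups did not overlap, a pattern that 4.3% of all genes showed with treated higher and 2.7% with treated lower, and its difference was 0.29 (SE 0.09, higher in 3 of 3 pairs, unadjusted p = 0.0122, adjusted p = 0.669 from limma). PSMA1 had 12.27, 12.26 and 11.92 in treated retinas, against 11.95, 11.93 and 11.74 in control retinas. Its pairs differed by 0.32, 0.33 and 0.19, while the treated retina of replicate 3 lay below both control retinas of replicates 1 and 2 (difference 0.28, SE 0.09, unadjusted p = 0.0137, adjusted p = 0.676 from limma). PSMA7 stood at 0.19 (higher in 3 of 3 pairs) and PSMA2 at 0.11, with a pair of replicate 3 near 0. The control retinas of PSMA2 spanned only 0.07, the narrowest spread of any of the 30 genes.

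The beta ring holds the proteolytic sites in PSMB5, which cuts after hydrophobic residues, PSMB6, which cuts after acidic ones, and PSMB7, which cuts after basic ones. PSMB5 had log2 signals of 11.33, 12.23 and 11.97 in treated retinas, against 11.13, 11.89 and 11.90 in control retinas (difference 0.20, 95% interval −0.02 to 0.42, adjusted p = 0.751 from limma). PSMB6 had 12.08, 13.15 and 12.77 in treated retinas, against 11.93, 12.73 and 12.70 in control retinas (difference 0.21, 95% interval −0.02 to 0.44, adjusted p = 0.751 from limma). Both were higher in 3 of 3 pairs, with the widest pair in replicate 2, and in both the groups overlapped. The dimmer probe set of PSMB5 stood at 0.03, with pairs of 0.10, −0.15 and 0.15, so that its replicate 2 ran the other way. PSMB7 had 12.37, 13.03 and 12.59 in treated retinas, against 12.20, 12.78 and 12.66 in control retinas, so that the pair of replicate 3 ran the other way (difference 0.12, 95% interval −0.11 to 0.34). Without replicate 2 the differences were 0.13 for PSMB5, 0.11 for PSMB6 and 0.05 for PSMB7, and PSMB7 stood at 0.21 without replicate 3 and also after median centring. Of the beta subunits without a proteolytic site, PSMB1 stood at 0.18, higher in 3 of 3 pairs, and PSMB2 at 0.11, higher in 1 of 3. PSMB11, which replaces PSMB5 in the thymus, was the dimmest of the 30, with 5.43, 2.14 and 6.03 in treated retinas, against 5.34, 5.27 and 5.06 in control retinas. Its difference of −0.69 (SE 0.88) rested on the treated retina of replicate 2, and it was 0.53 without that pair.

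**Figure D2:**
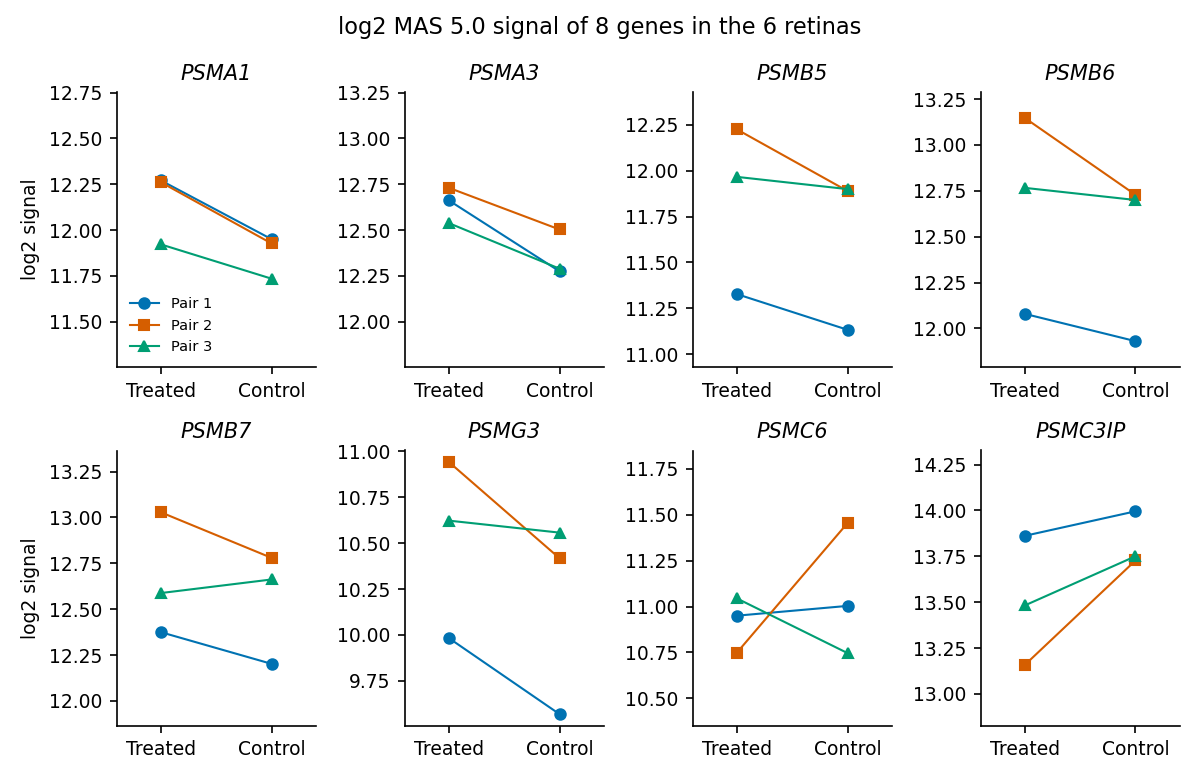
log2 MAS 5.0 signal (vertical axis, 1.5 units high in each panel) of 8 genes in the treated and control retinas, with lines that join the 2 retinas of a replicate number. The genes PSMA1, PSMA3, PSMB5, PSMB6 and PSMG3 are higher in the treated retina of every pair and PSMC3IP is lower in every pair, while PSMB7 and PSMC6 have pairs of both directions.

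The replicates also differed from each other, and differences between animals and between arrays cannot be told apart here. Over all genes with a mean log2 signal of at least 11, the median was 11.79 and 11.75 on the treated and control arrays of replicate 1. It was 11.88 to 12.05 on the other arrays. For PSMB6 both retinas of replicate 1 lay below the other 4, by 0.83 on average, beside a treated minus control difference of 0.21. That order held for 15 of the 30 genes, among them 5 of the 6 beta ring genes, 0 of the 4 alpha ring genes, 4 of 12 in the regulatory particle and all 5 chaperones, beside 23.2% of all genes and 44.3% of those with a mean log2 signal of at least 11. The reverse order, with replicate 1 above the others, was seen for PSME3, PSMC3IP, PSMC4 and PSMD11, beside 17.6% of all genes. The range of the control retinas exceeded the treated minus control difference for 25 of the 30 genes, a share close to the 87.7% of all genes, and the exceptions were PSMA1, PSMA2, PSMA3, PSMB11 and PSMC3IP, of which PSMA2 and PSMB11 were not higher or lower in 3 of 3 pairs.

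In the regulatory particle 11 of 12 genes stood above 0, the median was 0.10 (0.057 without replicate 1), and 0 genes had an unadjusted p under 0.05 in either direction. PSMD13, a lid subunit, had the largest difference of the particle with all 3 pairs, but not without replicate 2. Its log2 signals were 11.90, 12.75 and 12.35 in treated retinas, against 11.76, 12.25 and 12.36 in control retinas (difference 0.21, SE 0.11, adjusted p = 0.753 from limma). The pair of replicate 3 differed by only −0.008, and the difference was 0.06 without replicate 2, below the 0.16 of PSMC4, and 0.32 without replicate 3. The other lid genes PSMD6, PSMD7, PSMD8 and PSMD11 stood at 0.08, 0.12, 0.11 and 0.08. Of the base, the scaffold subunits PSMD1 and PSMD2 stood at 0.14 and 0.06. Among the ATPases, PSMC2 and PSMC5 stood at 0.11 and 0.15, PSMC3 at 0.09 and PSMC4 at 0.04.

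PSMC6 was the subunit of this particle with a difference below 0. Its log2 signals were 10.95, 10.75 and 11.04 in treated retinas, against 11.003, 11.45 and 10.75 in control retinas. The pairs pointed in different directions, at −0.05, −0.71 and 0.30, and the fitted difference was −0.15 (SE 0.18, adjusted p = 0.866 from limma) with all replicates and 0.12 without replicate 2. PSMC4, another ATPase, had 10.86, 10.47 and 10.36 in treated retinas, against 10.77, 10.67 and 10.12 in control retinas, and its difference was −0.06 without replicate 3.

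Set side by side, the core particle had a median difference of 0.19 and the regulatory particle one of 0.10, which leaves 0.09 between them. Within pairs the core median was 0.16, 0.26 and 0.08, and that of the regulatory particle was 0.11, 0.10 and 0.06, so that the core lay higher by 0.05, 0.17 and 0.02 in replicates 1 to 3. This gap was 0.02 without replicate 2 and 0.14 without replicate 1. Replicate 2 was also the pair in which the particles differed most in spread: 9 core genes, PSMB11 aside, lay between 0.21 and 0.42, whereas the 12 regulatory genes ran from −0.71 (PSMC6) to 0.51 (PSMC5) with 7 of them above 0. The values below 0 lay largely in the dimmer regulatory genes. Of the 5 below 0, 4 (PSMC3, PSMC4, PSMC6 and PSMD11) had a mean log2 signal under 11, as had no core gene other than PSMB11. The brighter regulatory genes still ran from −0.04 (PSMD8) to 0.51 (PSMC5). The other probe set of PSMC5, with a mean log2 signal of 12.27, stood at −0.38 in replicate 2 and at −0.08 in the fit. Of the 8 regulatory genes with a signal of at least 11, 7 lay above 0 in replicate 2, with a median of 0.21 beside 0.28 for the 9 core genes. In that range the core lay higher by 0.06, 0.07 and 0.04 in replicates 1 to 3. Of the core genes 6 of 10 were higher in 3 of 3 pairs, and of the regulatory genes 3 of 12 (PSMC2, PSMD1 and PSMD6), beside 19.3% of all genes. With a mean log2 signal of at least 11 it was 6 of 9 core and 3 of 8 regulatory genes, beside 577 of 2337 genes. The gap between the particles was not tested, because the genes of a complex are not replicates of a condition.

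**Figure D3:**
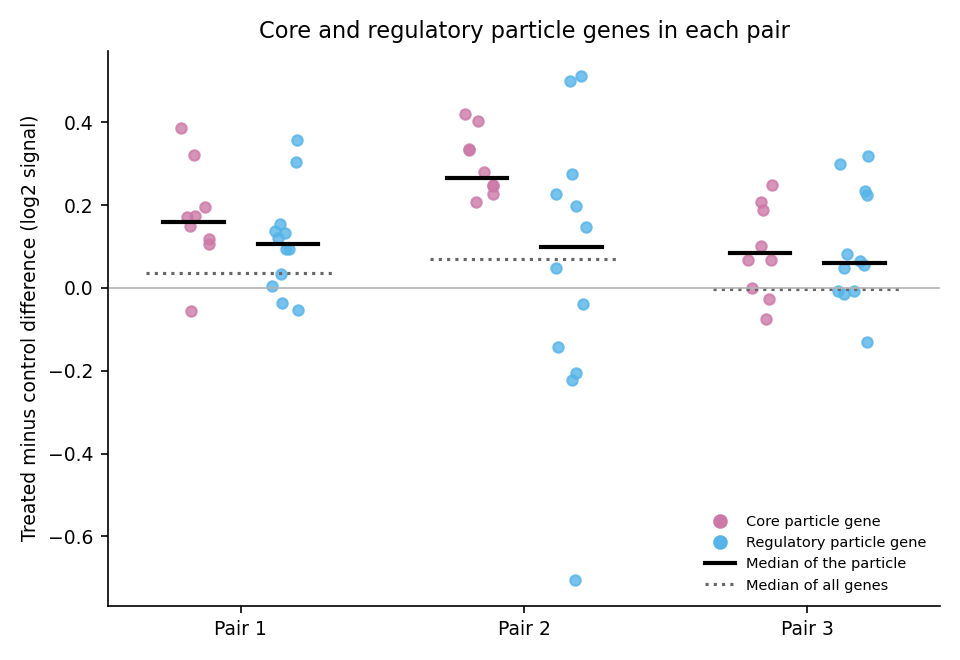
Treated minus control difference in log2 signal (vertical axis) of core particle and regulatory particle genes in each pair of retinas, a point per gene. Black lines are the medians over 10 core and 12 regulatory particle genes, and dotted lines those over all genes. All genes with a mean log2 signal of at least 11 had medians of 0.04, 0.13 and −0.03 in pairs 1 to 3 (not drawn). The core points of PSMB11 are left out of the plot but not of the medians. In pair 2 the core genes lie close together above 0, and the regulatory genes spread to both sides of it, where 7 of the 8 with a mean log2 signal of at least 11 lie above 0.

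All 5 assembly chaperones stood above 0 by their brightest probe sets and were higher in 3 of 3 pairs, beside 19.3% of all genes. PSMG3, which with PSMG4 helps to build the alpha ring, had the largest difference of the 30 genes. Its log2 signals were 9.98, 10.94 and 10.62 in treated retinas, against 9.57, 10.42 and 10.56 in control retinas (difference 0.33, SE 0.12, 95% interval 0.06 to 0.61, unadjusted p = 0.0249, adjusted p = 0.716 from limma). The groups overlapped, since the treated retina of replicate 1 lay below the control retinas of replicates 2 and 3. PSMG4 had pairs of 0.19, 0.20 and 0.20. That narrow spread gave an unadjusted p of 0.000294 in the methods' paired t-test, while limma, which draws the variance of a gene towards that of genes of similar signal, gave 0.118. The t-test put 4 of the 30 genes higher at an unadjusted p under 0.05 (PSMG4, PSMA1, PSMA3 and PSMA7), beside 4.21% of all genes higher and 2.84% lower, and none after adjustment. PSMG1 and PSMG2, which act as a dimer on the alpha ring, stood at 0.13 and 0.17, and PSMD9, a chaperone of the ATPase ring, at 0.18. The dimmer probe sets of PSMG1, PSMG2 and PSMG4 stood at −0.03, −0.89 and −0.14, with mean log2 signals of 11.27, 5.77 and 6.66. That of PSMG3 stood at 0.02 and those of PSMD9 at 0.15 and 0.05.

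The regulators outside the particles were dimmer and less precise. PSMF1, an inhibitor of the core particle in vitro, stood at 0.17, with pairs of −0.13, 0.41 and 0.23. PSME3, a nuclear activator that caps the core particle, had log2 signals of 8.58, 7.69 and 7.50 in treated retinas, against 8.30, 7.90 and 7.63 in control retinas. Its difference of −0.02 (SE 0.20) changed sign with the scaling, to 0.03 after quantile normalization and 0.07 after median centring.

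PSMC3IP, a recombination protein of meiosis and not a proteasome subunit, had the brightest probe set of the 30 and was the one lower gene at an unadjusted p under 0.05. Its brightest probe set had 13.86, 13.16 and 13.48 in treated retinas, against 14.00, 13.73 and 13.75 in control retinas (difference −0.32, SE 0.11, lower in 3 of 3 pairs, unadjusted p = 0.0192, adjusted p = 0.696 from limma), and the difference was −0.20 without replicate 2. It was the one member lower in 3 of 3 pairs, beside 13.6% of all genes. The annotation assigns 8 probe sets to this gene, whose differences ran from −0.57 to 0.26 with 2 above 0. Their mean log2 signals ran from 7.93 to 13.66, and whether all of them measure this gene was not tested. Without PSMC3IP and PSMB11, the 28 remaining genes had 26 above 0 and a median of 0.13.

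Of the 30 genes 21 had more than 1 probe set, and 12 of them had a dimmer probe set of the opposite sign. Of the 3 genes higher at an unadjusted limma p under 0.05, PSMA1 and PSMG3 had a dimmer probe set at 0.04 and 0.02. Those of PSMA3 stood at 0.19 and 0.05, each higher in 2 of 3 pairs. The 38 dimmer probe sets had 21 above 0 and a median of 0.04. Of the 22 with a mean log2 signal of at least 8, 10 lay above 0, with a median of −0.05. Without those of PSMC3IP it was 9 of 16, with a median of 0.04. Of the 16 with a signal under 8, 11 lay above 0, with a median of 0.16 and a median SE of 0.57. The gap between the brightest and the dimmer probe sets lay mainly in replicate 2, where the median was 0.24 for the brightest and −0.15 for the dimmer ones. It was 0.12 and −0.04 in replicate 1 and 0.07 and 0.06 in replicate 3. The 22 dimmer probe sets with a mean log2 signal of at least 8 had a median of −0.17 in replicate 2, and the 16 of them that do not belong to PSMC3IP had one of −0.10. For PSMA2, a pair of probe sets designed on the same target gave −0.40 and −0.37 (SE 0.10 and 0.11, unadjusted p = 0.00487 and 0.0111, adjusted p = 0.540 and 0.655 from limma), both lower in 3 of 3 pairs, while the brightest gave 0.11 and the others 0.14 and −0.12. The signal of the first of the pair was 11.25, 9.80 and 11.52 in treated retinas, against 11.48, 10.37 and 11.92 in control retinas. For PSMD11 the dimmer probe set gave −1.58 in replicate 2 and 0.18 and 0.43 in replicates 1 and 3, and for PSMC4 the dimmest gave −2.78, 0.01 and 0.54. The treated array of replicate 2 was also the one with the lowest median signal, and its part in these values was not tested.

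**Figure D4:**
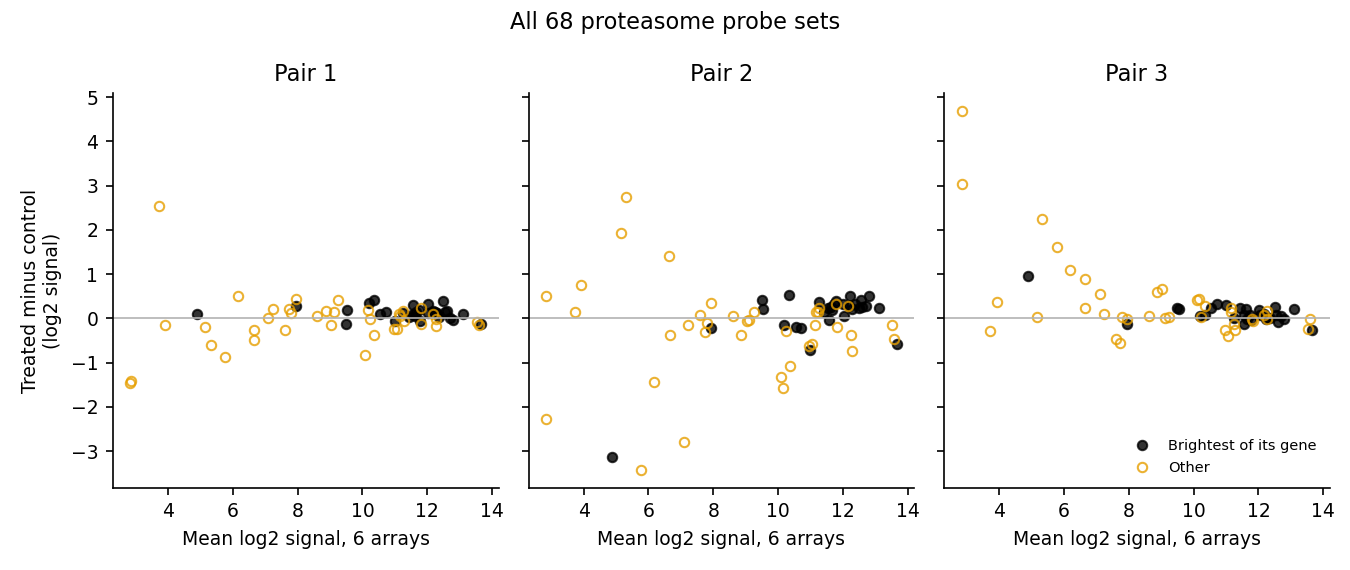
Treated minus control difference in log2 signal (vertical axis) against the mean log2 signal over the 6 arrays (horizontal axis) for the 68 proteasome probe sets, in each pair. Filled points are the brightest probe set of each gene and open points the others. The scatter widens below a signal of 8, and in pair 2 several open points between 10 and 14, those of PSMC3IP among them, lie below 0 while most filled ones lie above it.

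Of 5 interferon-induced genes of the same complex 3 were measured, and their differences stood further from 0 than any constitutive subunit other than PSMB11. PSMB8, which replaces PSMB5, had log2 signals of 8.47, 9.02 and 7.86 in treated retinas, against 6.68, 6.33 and 6.73 in control retinas (difference 1.87, SE 0.32, adjusted p = 0.167 from limma), with no overlap of the groups. PSMB10, which replaces PSMB7, stood at 0.67 (SE 0.16, adjusted p = 0.489) and PSME2, a subunit of the interferon-induced activator, at 0.53 (SE 0.15, adjusted p = 0.605). All 3 were higher in 3 of 3 pairs, and none passed after adjustment. The difference of PSMB8 exceeded that of PSMB5 by 1.67 ± 0.65 (SD, 3 pairs) and that of PSMB10 exceeded that of PSMB7 by 0.55 ± 0.22 (SD, 3 pairs), each with the same sign in 3 of 3 pairs and a two-sided exact sign-flip p of 0.25, the smallest that 3 pairs allow.

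Of 11 proteasome partners listed, 9 were measured, 8 of them above 0, with a median of 0.13 and 0 at an unadjusted p under 0.05. SEM1, a small lid subunit, stood at 0.27 (SE 0.12, adjusted p = 0.751 from limma) and ADRM1, a ubiquitin receptor of the base, at 0.24 (SE 0.13, adjusted p = 0.752), both higher in 3 of 3 pairs. NFE2L1 itself stood at 0.08 (SE 0.10, adjusted p = 0.874), its relative NFE2L2, the oxidative stress factor, at 0.10, and NGLY1, the glycanase that processes NFE2L1, at 0.05, with none at an unadjusted p under 0.05. Of 9 ubiquitin and shuttle genes listed, 2 were measured, RAD23B and UBQLN2, which carry ubiquitinated proteins to the proteasome. They stood at 0.02 and 0.03.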

How the data were processed

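Total RNA was measured on Affymetrix Rhesus Macaque Genome Arrays, which have 1 color, with 1 array per retina. The authors deposited log2 values of MAS 5.0 signals computed in GeneSpring. Detection calls were not used here, and the number of arrays limits the precision.

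Treated minus control differences of all 52024 probe sets were tested in limma 3.58.1 (R 4.3.3; lmFit and eBayes, trend = TRUE). Replicate number was the block, and Benjamini-Hochberg adjustment covered every probe set. No filter and no further normalization were applied. The pairing follows the methods, which compare both retinas of each monkey. The labels give replicate numbers only, and it was assumed that a number stands for an animal. Deviations from the group means correlated at 0.357, 0.137 and 0.161 within replicate numbers. Between different numbers the correlations ran from −0.243 to 0.104. The 0.104, between treated replicate 2 and control replicate 3, was close to the 0.137 of pair 2. The limma p-values rest on the spread of the differences over 3 pairs, drawn towards that of probe sets of similar signal. Symbols of the platform annotation were updated through the gene IDs of the RefSeq gene table, which held 67 of the 68 proteasome probe sets. No coordinates and no sequences were taken.

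Values by retina are given for genes at an unadjusted p under 0.05, the 5 largest and 5 lowest differences, the brightest and dimmest gene, and PSMB5, PSMB6 and PSMB7. Members, lists and this rule were chosen with earlier results of these data known. Other genes, and the counts by replicate 1 and by probe set, were chosen after their values were seen. The script was tested on simulated data. Figures were drawn with matplotlib 3.10.9.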

Additional observations from a re-analysis of the deposited data

How the results depend on the processing

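Limits: with 3 pairs no member passed after adjustment in any of the settings tried, so these values describe directions and intervals. The count of members after adjustment was 0 under quantile normalization, median centring, a filter on dim probe sets, no trend, no pairing, the methods' t-test and without each replicate. At an unadjusted limma p under 0.05 it was 4 of 30, beside 6.74% of all probe sets. Among the 2337 genes with a mean log2 signal of at least 11, 166 were higher and 134 lower at that p. The count of members was 0 with no replicate block (limma without the pairing), beside 2.45%, and 0 with no trend, beside 5.55%. When a replicate was left out it was 1 without replicate 1, beside 4.25%, and 4 without replicate 2, beside 7.32%. Without replicate 3 it was 6, beside 9.36%. The count above 0 lay between 25 and 27 in all scalings and without each replicate. The share of all genes above 0 was 53.3% to 58.2% in these settings, except for 69.5% after median centring.

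With each array centred on its median, the median difference was 0.22 for all members, 0.28 for the core particle and 0.20 for the regulatory particle, beside 0.13 for all genes. When a replicate was left out the medians were 0.11 to 0.18 for all members, 0.13 to 0.22 for the core particle and 0.057 to 0.12 for the regulatory particle, and the gap between the particles was 0.02 to 0.14. Restricting the members to a mean log2 signal of at least 11 or leaving out PSMC3IP and PSMB11, both chosen after seeing the data, moved these medians by less than the spread between pairs. Of the named genes, 4 changed sign in some setting. When a replicate was left out PSMB11 ran from −1.52 to 0.53 (0.53 without replicate 2), PSMC6 from −0.38 to 0.12 (0.12 without replicate 2), PSMC4 from −0.056 to 0.16 (−0.056 without replicate 3) and PSME3 from −0.17 to 0.070 (0.070 without replicate 2, 0.033 without replicate 3), and PSME3 was 0.035 after quantile normalization and 0.073 after median centring. The causes were not tested.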

Other observations

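USP14, a deubiquitinase that binds the regulatory particle, had log2 signals of 13.92, 12.65 and 13.52 in treated retinas and 14.28, 11.48 and 13.83 in control retinas, so that its control retinas spanned 2.80, while those of SEM1 spanned 0.07. In USP14 both retinas of replicate 2 lay below the other 4, and its pairs were −0.37, 1.17 and −0.31. ZFAND5, which stimulates proteasome activity, was the one partner below 0, at −0.10, and was lower in 3 of 3 pairs (adjusted p = 0.824 from limma).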
